A study of Mus musculus with 24 samples.

Results

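The Beclin-VPS34 complex genes are 7 genes, Becn1, Pik3c3, Pik3r4, Atg14, Uvrag, Nrbf2 and Ambra1, whose products make up or steer the class III phosphatidylinositol 3-kinase. They were chosen by gene symbol with earlier results of these data known, so counts of calls among them are no test of the set. All 7 of 7 were found among the 32719 genes counted and passed the filter on low counts that left 15599 genes for testing. Their RNA was measured in primary cortical astrocytes of newborn mouse pups homozygous for a floxed insulin receptor gene, Insr. The controls (IRflox) were given adenovirus encoding GFP, and the receptor knockouts (IRKO) were given adenovirus encoding Cre:GFP, so genotype and virus cargo cannot be told apart. All 6 groups carry the floxed alleles and a virus, were used 5 days after infection and were starved of serum overnight, and cells of each genotype were then treated for 6 h with vehicle, with insulin at 100 nM or with IGF-1 at 100 nM, giving 4 libraries in each group and 24 in all. The cultures, labelled DIV14 (days in vitro) in every sample title, had been shaken to deplete cells other than astrocytes. The virus was added to the whole culture, and the sources used here name no promoter that restricts Cre to one cell type. The labels number the replicates but do not say whether they came from separate litters or cultures, so the p-values reflect only how far these libraries differ, a spread that may be technical.

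Autophagy and endosome maturation both depend on phosphatidylinositol 3-phosphate (PI3P), a membrane lipid that recruits effector proteins and is made by the kinase VPS34. VPS34, encoded by Pik3c3, works on a scaffold kinase, VPS15, encoded by Pik3r4, together with Beclin 1, encoded by Becn1. Binding of ATG14 to this core gives complex I, which acts at the forming autophagosome and also holds NRBF2, whereas UVRAG takes the place of ATG14 in complex II, which acts on endosomes and late autophagosomes. AMBRA1 binds Beclin 1 and links it to the ULK1 kinase complex upstream. Insulin and IGF-1 are known to restrain autophagy through AKT and mTORC1, and the series compares the transcripts of astrocytes given either ligand, with and without the insulin receptor gene.

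The sequences before the start sites of Pik3r4 and Uvrag are shown because they were the windows of this family that held the most frequent of 4 motifs searched. Each run is the 250 bases upstream of the RefSeq start (GRCm38.p6), 5′ to 3′ on the strand of the gene, and capitals mark the motif CCAAT, the core of the NF-Y site, on either strand. The annotated GENCODE gene begins upstream of the RefSeq start for Pik3r4, so the last 17 bases of its window lie inside the gene, and the Uvrag window lies outside its gene.
Pik3r4, chr9:105642745-105642994, plus strand: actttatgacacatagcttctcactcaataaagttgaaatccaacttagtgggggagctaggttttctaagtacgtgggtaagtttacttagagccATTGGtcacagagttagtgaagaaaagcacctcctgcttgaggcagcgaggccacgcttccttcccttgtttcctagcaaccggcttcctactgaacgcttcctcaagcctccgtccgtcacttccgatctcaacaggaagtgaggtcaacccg
Uvrag, chr7:99141145-99141394, minus strand: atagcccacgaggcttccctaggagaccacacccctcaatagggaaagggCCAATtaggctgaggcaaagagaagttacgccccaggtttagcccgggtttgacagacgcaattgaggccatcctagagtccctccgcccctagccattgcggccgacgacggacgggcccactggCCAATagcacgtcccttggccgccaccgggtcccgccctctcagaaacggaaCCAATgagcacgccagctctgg
The RefSeq table held 5 of the 7 members and lacked Becn1 and Pik3c3, which were not searched. In the same window of each of the 5, 4 motifs were searched on both strands, with no overlap between matches of different motifs. The Atg14 window overlaps an exon of a longer GENCODE transcript. The FOXO-type motif GTAAACA had no match in the 5 windows and occurred in 3.17% of 32851 windows of the table. CACGTG, the E-box bound by the TFEB family among others, matched 1 time before Nrbf2, 208 bases upstream, and occurred in 6.02% of windows. TGACGTCA, bound by CREB, had no match and occurred in 1.55%, and CCAAT matched 3 times before Uvrag and 1 time before Pik3r4 and occurred in 33.8%. A match describes these letters only.

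Libraries held 15429688 to 19010986 gene counts, and 14.5 to 23.2% of their reads fell outside genes. Levels are given as CPM, the counts scaled to library size with TMM factors, and differences as log2 ratios from 1 edgeR quasi-likelihood fit to the 24 libraries. A gene was called where its p, adjusted by Benjamini and Hochberg over all genes tested, was under 0.05. Insr averaged 61.6 ± 3.60 CPM in IRflox and 40.4 ± 2.47 in IRKO under vehicle (SD, n = 4), a log2 difference of -0.61 (SE 0.0546, adjusted p = 3e-10 in edgeR). It was also lower in IRKO under insulin, by -0.78, and under IGF-1, by -0.68, and the counts cover the whole gene, of which the labels do not name the floxed part. Of 10 astrocyte markers, 10 were tested and 8 exceeded 100 CPM in every library. Aldoc ranged from 94.5 to 130.7 CPM and S100b only from 1.7 to 3.933. The IGF-1 libraries of each genotype lay below its vehicle libraries in the summed level of these 10 markers. It ranged in IRflox from 4503 to 4785 CPM (vehicle), 4470 to 4748 (insulin) and 4131 to 4268 (IGF-1), and in IRKO from 4728 to 4983, 4681 to 4829 and 4453 to 4493. With IGF-1, 2 astrocyte markers were called higher and 6 lower in IRflox, and 2 and 5 in IRKO, and with insulin 4 and 3 in IRflox and 4 and 4 in IRKO.

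Markers of other cell types also moved with the groups. The summed level of 10 microglia markers in the IRflox libraries ranged from 1012 to 1065 CPM (vehicle), 871 to 937.5 (insulin) and 904.8 to 939.8 (IGF-1), and in the IRKO libraries from 1239 to 1268, 1050 to 1087 and 1027 to 1107. Of these markers 7, 5, 8 and 8 were called lower and 0 higher with insulin in IRflox, IGF-1 in IRflox, insulin in IRKO and IGF-1 in IRKO. Microglia markers were also called higher in IRKO than in IRflox, 9 of 10 with vehicle, 7 with insulin and 5 with IGF-1. The 8 oligodendrocyte lineage markers summed in IRflox to 242.5 to 265.1 CPM (vehicle), 319.2 to 354.9 (insulin) and 362.2 to 392.1 (IGF-1), and in IRKO to 263.1 to 280.5, 370.7 to 376.9 and 401.4 to 434. Most of that sum was Olig1, at 106 to 217.6 CPM, and Olig2, at 61.4 to 130.3, and the 6 of 8 markers tested were called in both directions, 3 higher and 1 lower, 2 and 2, 2 and 1, and 3 and 2 in the same 4 comparisons, while Sox10 and Mog stayed under 1 CPM. Fibroblast and mural cell markers summed to 171.8 to 219.4 CPM over the 6 groups. Neuron markers summed in IRflox to 80.26 to 90.15 CPM (vehicle), 97.7 to 106.3 (insulin) and 102.1 to 113.2 (IGF-1), and in IRKO to 70.68 to 79.6, 81.23 to 91 and 89.54 to 97.55, with 4 of 8 under 1 CPM in every library. Most of that sum was 1 gene, Stmn2, at 56.7 to 98.48 CPM. The 5 of 8 neuron markers tested were called 2 higher and 1 lower, 1 and 0, 1 and 2, and 1 and 1 in the same 4 comparisons. Endothelial markers summed to at most 11.32 CPM, with 4 of 6 under 1 CPM. The part of these cells in the results below was not tested, and in bulk RNA a smaller number of cells that express a gene and less of its RNA per cell cannot be told apart.

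All members are protein-coding genes on mm10 (GRCm38, GENCODE M21). On the plus strand are Pik3c3 (chromosome 18, 30272747 to 30348126), Pik3r4 (chromosome 9, 105642978 to 105687657) and Ambra1 (chromosome 2, 91730134 to 91918849). The minus strand holds Becn1 (chromosome 11, 101285952 to 101302286), Atg14 (chromosome 14, 47540893 to 47570649), Uvrag (chromosome 7, 98885021 to 99141141) and Nrbf2 (chromosome 10, 67266689 to 67285305). Becn1 shares 43.9% of its exon length with Cntd1 on the opposite strand, and the libraries carry no strand information, so its count is uncertain. Cntd1 was picked out after its values were seen and held 204 to 362 counts per library beside 1174 to 1510 for Becn1. The other 6 members share no exon sequence with another measured gene.

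With either ligand, most genes of the complex were lower, and none was called higher. Insulin lowered 6 of 7 in IRflox, where 45.7% of all genes tested were called and 21.4% were called lower. IGF-1 lowered 6 of 7 in IRflox (50.8% of all genes called, 24.4% lower), insulin 6 of 7 in IRKO (46.4% called, 21.7% lower) and IGF-1 5 of 7 in IRKO (52.0% called, 25.1% lower). The median log2 difference over the 7 genes was -0.33, -0.31, -0.26 and -0.23 in these 4 comparisons, and over all genes tested it was 0.0010, -0.0037, 0.0086 and -0.00069. The 2 comparisons of a genotype share its vehicle libraries, and the 7 genes were chosen with earlier results of these data known. How many of all genes have groups that do not overlap was not counted, here or below. The genes split by size of response: Atg14 and Pik3c3 had the largest falls, at -0.73 to -0.96 on the log2 scale, Pik3r4 lay at -0.44 to -0.56, Nrbf2, Uvrag and Ambra1 lay nearer 0, and Becn1 was not called in any of the 4.

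**Figure D1:**
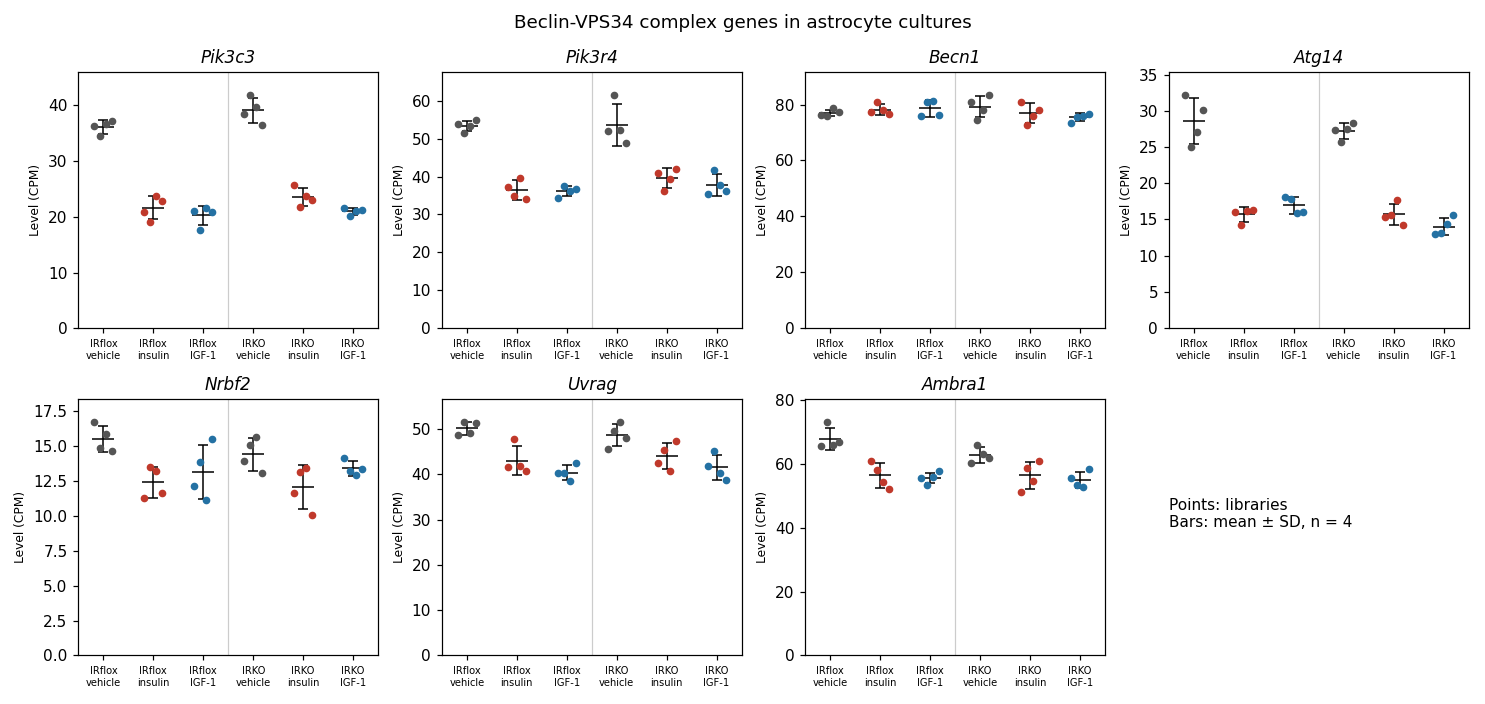
Level of each gene (CPM, linear axis from 0) in the 6 groups, with 1 point per library and bars for the mean ± SD (n = 4). For Pik3c3, Pik3r4 and Atg14 the 16 ligand libraries lie below the 8 vehicle libraries, whereas the Becn1 libraries lie between 72.8 and 83.4 CPM throughout.

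Pik3c3, the gene of the lipid kinase itself, stood at 36.3, 34.4, 36.6 and 37.2 CPM in the IRflox vehicle libraries, at 20.8, 19.1, 23.8 and 22.9 with insulin, and at 21.1, 17.7, 21.5 and 20.8 with IGF-1. In IRKO it stood at 38.5, 41.8, 39.8 and 36.5 CPM under vehicle, 25.7, 21.8, 23.8 and 23.01 with insulin, and 21.6, 20.1, 21.05 and 21.2 with IGF-1. The lowest of the 8 vehicle libraries, at 34.42 CPM, was above the highest of the 16 ligand libraries, at 25.66. In IRflox Pik3c3 fell by 40.1% with insulin (log2 difference -0.74, SE 0.0688, edgeR adjusted p = 6.37e-12) and by 44% with IGF-1 (-0.84, SE 0.0692, adjusted p = 1.69e-13). In IRKO it fell by 39.8% with insulin (-0.73, SE 0.0671, edgeR adjusted p = 4.51e-12) and by 46.4% with IGF-1 (-0.90, SE 0.0684, adjusted p = 1.43e-14).

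Pik3r4, the gene of the VPS15 scaffold that holds VPS34 to membranes, stood at 53.9, 51.4, 53.3 and 54.8 CPM in the IRflox vehicle libraries, at 37.3, 34.9, 39.7 and 34.02 with insulin, and at 34.4, 37.4, 36.2 and 36.6 with IGF-1. In IRKO the values were 51.9, 61.5, 52.3 and 48.8 CPM under vehicle, 40.96, 36.1, 39.4 and 42.02 with insulin, and 35.4, 41.8, 37.8 and 36.1 with IGF-1. Vehicle and ligand libraries again did not overlap, with 48.82 CPM as the lowest vehicle value and 42.02 as the highest ligand value, and the second IRKO vehicle library was the highest of the 24. The log2 difference with insulin was -0.55 in IRflox (SE 0.0632, edgeR adjusted p = 1.45e-09) and -0.44 in IRKO (SE 0.0622, adjusted p = 1.68e-07). With IGF-1 it was -0.56 in IRflox (SE 0.0632, edgeR adjusted p = 6.25e-10) and -0.51 in IRKO (SE 0.0627, adjusted p = 6.02e-09).

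Becn1, the gene of the Beclin 1 subunit common to complexes I and II, averaged 77 ± 1.23 CPM under vehicle, 78.24 ± 1.92 with insulin and 78.61 ± 2.9 with IGF-1 in IRflox (SD, n = 4). In IRKO it averaged 79.2 ± 3.78, 76.98 ± 3.51 and 75.4 ± 1.41 CPM. The groups overlapped in all 4 ligand comparisons. The log2 difference was 0.02 with insulin in IRflox (95% interval -0.0634 to 0.109, edgeR adjusted p = 0.701) and 0.03 with IGF-1 (-0.0558 to 0.116, adjusted p = 0.586). In IRKO it was -0.04 with insulin (95% interval -0.126 to 0.0449, edgeR adjusted p = 0.459) and -0.07 with IGF-1 (-0.156 to 0.0151, adjusted p = 0.166). Differences the size of those of Pik3c3 lie outside these intervals, with the limit that reads of Cntd1 may be among the counts.

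Atg14, whose product directs the kinase to sites of autophagosome formation, stood at 32.2, 24.95, 27.1 and 30.1 CPM in the IRflox vehicle libraries, at 16.1, 14.2, 16.2 and 16.3 with insulin, and at 18.04, 17.9, 15.9 and 16.01 with IGF-1. In IRKO the values were 27.3, 25.7, 27.5 and 28.3 CPM under vehicle, 15.3, 15.6, 17.7 and 14.2 with insulin, and 12.97, 13.2, 14.3 and 15.6 with IGF-1. The 16 ligand libraries, at 12.97 to 18.04 CPM, lay below the 8 vehicle libraries, at 24.95 to 32.15. In IRflox Atg14 fell by 45.1% with insulin (log2 difference -0.87, SE 0.0798, edgeR adjusted p = 5e-12) and by 40.7% with IGF-1 (-0.76, SE 0.0788, adjusted p = 9.44e-11). In IRKO it fell by 42.3% with insulin (-0.79, SE 0.0794, edgeR adjusted p = 4.19e-11) and by 48.5% with IGF-1 (-0.96, SE 0.081, adjusted p = 3.12e-13).

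Nrbf2, whose product stabilises complex I, had the lowest mean CPM of the 7 genes in every group, with a coefficient of variation of up to 14.6% within a group. It ranged from 14.67 to 16.71 CPM under vehicle, 11.27 to 13.52 with insulin and 11.17 to 15.53 with IGF-1 in IRflox, and from 13.06 to 15.68, 10.06 to 13.44 and 12.95 to 14.18 in IRKO. Only the insulin comparison in IRflox had groups that did not overlap. The fall with insulin was -0.33 on the log2 scale in IRflox (SE 0.0962, edgeR adjusted p = 0.00498) and -0.26 in IRKO (SE 0.0963, adjusted p = 0.0236). With IGF-1 the difference was -0.24 in IRflox (SE 0.0953, edgeR adjusted p = 0.0324), and in IRKO it was -0.11 and did not pass (SE 0.0955, adjusted p = 0.374). The IGF-1 call in IRflox was lost without IRflox vehicle replicate 1 (edgeR adjusted p = 0.0839) or 3 (0.0636), or without IRflox IGF-1 replicate 1 (0.0801) or 3 (0.158).

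Uvrag, whose product replaces ATG14 in complex II, stood at 48.7, 51.5, 49.1 and 51.4 CPM in the IRflox vehicle libraries, at 41.7, 47.8, 41.9 and 40.7 with insulin, and at 40.2, 40.3, 38.5 and 42.6 with IGF-1. In IRKO the values were 45.7, 49.6, 51.5 and 48.2 CPM under vehicle, 42.6, 45.3, 40.8 and 47.3 with insulin, and 41.96, 45.2, 40.2 and 38.9 with IGF-1. Of the 16 ligand libraries 14 lay below the lowest vehicle library, and the insulin and vehicle groups of IRKO overlapped. The fall with insulin was -0.22 on the log2 scale in IRflox (SE 0.0573, edgeR adjusted p = 0.00142) and -0.15 in IRKO (SE 0.0568, adjusted p = 0.0303). With IGF-1 it was -0.31 in IRflox (SE 0.0575, edgeR adjusted p = 1.49e-05) and -0.23 in IRKO (SE 0.0573, adjusted p = 0.000778).

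Ambra1, whose product ties Beclin 1 to the ULK1 complex and to ubiquitin ligases, ranged from 65.5 to 72.99 CPM under vehicle, 52.27 to 60.81 with insulin and 53.44 to 57.63 with IGF-1 in IRflox. In IRKO it ranged from 60.36 to 65.9 CPM under vehicle, 51.33 to 60.99 with insulin and 52.76 to 58.46 with IGF-1. The groups overlapped only for insulin in IRKO. The fall with insulin was -0.26 on the log2 scale in IRflox (SE 0.0532, edgeR adjusted p = 6.78e-05) and -0.16 in IRKO (SE 0.0531, adjusted p = 0.0142). With IGF-1 it was -0.29 in IRflox (SE 0.0532, edgeR adjusted p = 1.72e-05) and -0.19 in IRKO (SE 0.0534, adjusted p = 0.00257).

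**Figure D2:**
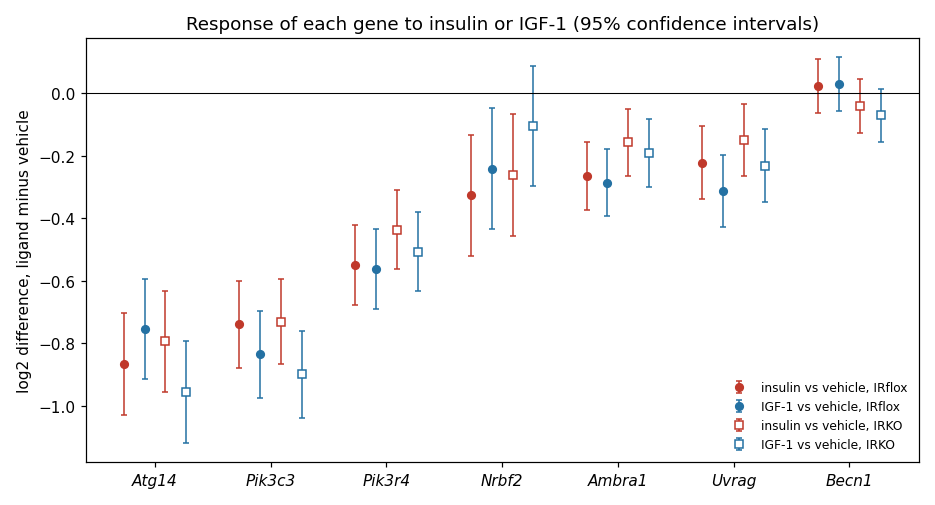
Fitted log2 difference of each gene, ligand minus vehicle, with its 95% confidence interval; circles are IRflox, squares IRKO, red insulin and blue IGF-1. Atg14 and Pik3c3 lie between -0.73 and -0.96, Pik3r4 between -0.44 and -0.56, and the 4 intervals of Becn1 include 0.

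The falls of Uvrag, Nrbf2 and Ambra1 with insulin in IRKO each lost their call when certain single libraries were left out. Without IRKO insulin replicate 1, 3 of 7 genes in place of 6 passed for insulin in IRKO, because Uvrag (edgeR adjusted p = 0.0705), Nrbf2 (0.0546) and Ambra1 (0.0813) no longer did. In the same comparison Uvrag also did not pass without IRKO vehicle replicate 2 (0.0533) or 3 (0.09) or IRKO insulin replicate 3 (0.0757), nor Nrbf2 without IRKO vehicle replicate 2 (0.0565) or 3 (0.0767) or IRKO insulin replicate 4 (0.125). Atg14, Pik3c3 and Pik3r4 passed in each of the 4 ligand comparisons in 31 of 31 alternative settings.

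Ratios of counts within a library do not depend on how libraries are scaled. They restate the levels given above, and how many of all gene pairs separate vehicle from ligand libraries was not counted. The ratio of Atg14 to Uvrag, the genes that set complex I apart from complex II, was 0.660, 0.485, 0.552 and 0.585 in the IRflox vehicle libraries, 0.385, 0.298, 0.386 and 0.401 with insulin, and 0.449, 0.443, 0.413 and 0.376 with IGF-1. In IRKO it was 0.598, 0.518, 0.534 and 0.589 under vehicle, 0.359, 0.345, 0.433 and 0.300 with insulin, and 0.309, 0.291, 0.356 and 0.402 with IGF-1. The 8 vehicle libraries, at 0.4845 to 0.6604, lay above the 16 ligand libraries, at 0.2914 to 0.4485. The transcript ratio is not a ratio of proteins or of assembled complexes, which were not measured here.

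Of 5 genes set against Pik3c3, the kinase gene, Becn1 and Uvrag gave ratios that did not overlap between vehicle and ligand libraries, and Pik3r4, Nrbf2 and Atg14 gave ratios that did. Becn1 counts were 1.783 to 2.282 times those of Pik3c3 under vehicle and 3.159 to 4.567 times with a ligand, without overlap. Uvrag counts were 1.186 to 1.496 times those of Pik3c3 under vehicle and 1.661 to 2.5 times with a ligand, also without overlap. The ratio of Pik3r4 to Pik3c3 was 1.315 to 1.494 under vehicle and 1.485 to 2.115 with a ligand, with 15 of 16 ligand libraries above the vehicle range. The ratio of Nrbf2 to Pik3c3 was 0.3576 to 0.4597 under vehicle and 0.4372 to 0.7821 with a ligand, with 14 of 16 above. The ratio of Atg14 to Pik3c3 was 0.6149 to 0.8847 under vehicle and 0.5962 to 1.01 with a ligand, so these ranges overlapped.

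**Figure D3:**
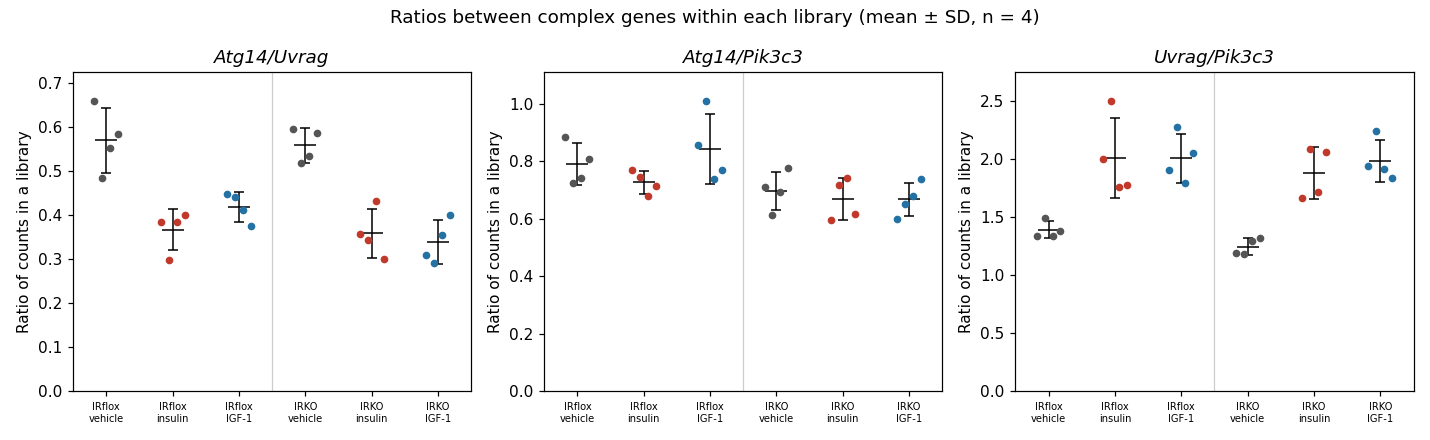
Ratio of counts between 2 genes of the complex in each library (linear axis from 0), with points for libraries and bars for the mean ± SD (n = 4). Vehicle and ligand libraries do not overlap for Atg14 to Uvrag or for Uvrag to Pik3c3, and they overlap for Atg14 to Pik3c3.

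Levels of different genes can be compared only per length, and their order depended on the length used. Per kilobase of all annotated exons, the IRflox vehicle means were 11.1 ± 0.574 CPM per kb for Ambra1, 10.9 ± 0.175 for Becn1, 8.35 ± 0.503 for Nrbf2 and 8.10 ± 0.272 for Pik3c3 (SD, n = 4). They were 6.61 ± 0.735 CPM per kb for Atg14, 5.55 ± 0.165 for Uvrag and 5.52 ± 0.147 for Pik3r4. Neighbours in this order that differed by less than the larger of their SDs were Ambra1 and Becn1, Nrbf2 and Pik3c3, and Uvrag and Pik3r4. Per kilobase of the longest coding transcript the order was Becn1 at 17.6 CPM per kb, Ambra1 at 13, Pik3r4 at 11.2, Pik3c3 at 11.1, Uvrag at 9.73, Nrbf2 at 8.57 and Atg14 at 7.66. In this order Pik3r4 and Pik3c3 differed by less than their SDs of 0.3 and 0.37. Becn1 and Ambra1 held the first 2 places by both lengths, though the Becn1 count is uncertain because of its overlap with Cntd1. Per kilobase of all annotated exons Pik3r4 lay level with Uvrag at the low end. By the other length it lay level with Pik3c3, next after Becn1 and Ambra1.

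Loss of the receptor gene left the vehicle levels of the complex genes without a call. Under vehicle 0 of 7 genes passed in edgeR and 0 in DESeq2, where 7.86% of all genes tested were called, and 1 had an unadjusted p under 0.05. That gene was Ambra1, at 62.8 ± 2.36 CPM in IRKO and 67.8 ± 3.51 in IRflox (SD, n = 4), a log2 difference of -0.11 (95% interval -0.215 to -0.00352, edgeR adjusted p = 0.223). For Pik3c3 the difference was 0.11 (95% interval -0.0153 to 0.244), and for Atg14 it was -0.07 (-0.222 to 0.0787). Under insulin 0 of 7 passed in edgeR and 0 in DESeq2, with 0 at an unadjusted p under 0.05 and 10.5% of all genes called.

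Under IGF-1 1 of 7 genes passed, Atg14, with 6.76% of all genes tested called and 3.15% called lower. Atg14 averaged 14.02 ± 1.22 CPM in IRKO and 16.95 ± 1.16 in IRflox (SD, n = 4), and the 4 IRKO libraries lay below the 4 IRflox libraries, 15.6 against 15.89 CPM at the nearest. The log2 difference was -0.27 (SE 0.0857, edgeR adjusted p = 0.0422). The call was lost when IRflox IGF-1 replicate 1 (0.122) or 2 (0.116) or IRKO IGF-1 replicate 1 (0.137), 2 (0.127) or 3 (0.0671) was left out. Over the 3 treatments together 0 of 7 passed in edgeR and 0 in DESeq2, with 2 at an unadjusted p under 0.05 and 25.9% of all genes called. These were Atg14, at -0.12 (95% interval -0.211 to -0.0199, edgeR adjusted p = 0.0674), and Pik3c3, at 0.10 (0.0149 to 0.178, adjusted p = 0.0739), and microglia markers were higher in IRKO in the same comparisons.

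The responses were next compared between genotypes. The insulin response differed between IRKO and IRflox for 0 of 7 genes in edgeR and 0 in DESeq2, with 0 at an unadjusted p under 0.05 and 0% of all genes called, and the IGF-1 response did so for 0 of 7 in both tools, with 0 at an unadjusted p under 0.05 and 0% of all genes called in edgeR. For Atg14 the response in IRKO minus that in IRflox was 0.07 on the log2 scale for insulin (95% interval -0.157 to 0.3) and -0.20 for IGF-1 (-0.432 to 0.0263). For Pik3c3 it was 0.01 for insulin (-0.186 to 0.203) and -0.06 for IGF-1 (-0.26 to 0.134). For Pik3r4 it was 0.11 for insulin (-0.0663 to 0.292) and 0.05 for IGF-1 (-0.126 to 0.234). These intervals bound the difference but do not show that the responses were equal.

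The ligands were set against each other at the same dose and time. No gene of the complex passed in IRflox, 0 of 7 in edgeR and 0 in DESeq2, with 0 at an unadjusted p under 0.05 and 2.59% of all genes called. In IRKO 0 of 7 passed in both tools, with 2.67% of all genes called and 1 gene at an unadjusted p under 0.05. This was Pik3c3, at 23.6 ± 1.63 CPM with insulin and 21 ± 0.624 with IGF-1 (SD, n = 4), a log2 difference of 0.17 (95% interval 0.0215 to 0.313, edgeR adjusted p = 0.267), and these 2 groups did not overlap. Averaged over genotypes 0 of 7 passed in both tools, with 8.55% of all genes called and 2 genes at an unadjusted p under 0.05. These were Pik3c3, at 0.13 (95% interval 0.0277 to 0.235, edgeR adjusted p = 0.114), and Uvrag, at 0.09 (0.00324 to 0.17, adjusted p = 0.226).

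The genes around the complex were taken from 5 lists, also chosen with earlier results of these data known. Across all genes tested 24.3% were called higher and 21.4% lower with insulin in IRflox, and 26.4% and 24.4% with IGF-1 in IRflox. In IRKO 24.7% were called higher and 21.7% lower with insulin, and 26.9% and 25.1% with IGF-1. The ULK1 kinase complex, which signals to the Beclin-VPS34 complex when nutrients fall, had 5 of 5 genes called lower in each of the 4 ligand comparisons, with a median log2 difference of -0.75 with insulin and -0.87 with IGF-1 in IRflox. Ulk1, the kinase gene, averaged 99.4 ± 5.62 CPM under vehicle, 38.8 ± 2.52 with insulin and 35.4 ± 1.91 with IGF-1 in IRflox (SD, n = 4). Atg13, the gene of an adaptor of that kinase, changed by -0.80 with insulin and -0.97 with IGF-1 in IRflox on the log2 scale, and Ulk2, a second kinase gene, by -0.75 and -0.87. The fall of Ulk1, at -1.36 with insulin in IRflox, was larger than that of any of the 7 genes of the Beclin-VPS34 complex there, and this difference between genes was not tested.

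Genes for proteins that bind or modify the complex were called in both directions. Whether their shares differ from those of all genes was not tested. Of 30 regulators and binding partners tested, 7 were called higher and 9 lower with insulin in IRflox, 8 and 9 with IGF-1, 6 and 10 with insulin in IRKO and 8 and 8 with IGF-1 in IRKO, and Becn2 was not analysed here. Over the 4 comparisons these were 20 to 26.7% higher, beside 24.3 to 26.9% of all genes, and 26.7 to 33.3% lower, beside 21.4 to 25.1%. Fbxl20, an F-box gene whose ubiquitin ligase acts on VPS34, fell from 122.5 to 63.5 CPM with insulin in IRflox (log2 difference -0.95, SE 0.0451, edgeR adjusted p = 6.32e-21). Dynll1, a dynein light chain gene, rose from 71.1 to 114 CPM (0.68, SE 0.0533, edgeR adjusted p = 5.01e-14), and Usp10, a deubiquitinase gene whose product acts on Beclin 1, rose from 65.5 to 85.3 CPM (0.38, SE 0.0491). Rubcn, the gene of Rubicon, which binds and restrains complex II, changed by -0.18 with insulin and -0.29 with IGF-1 in IRflox, and by -0.23 and -0.27 in IRKO, each called.

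Of 4 genes of the BCL2 family, some of whose products bind Beclin 1 and hold it inactive, Bcl2l1 fell in the 4 ligand comparisons, by -0.37, -0.26, -0.32 and -0.29 in the order insulin and IGF-1 in IRflox, then in IRKO. Bcl2 differed by -0.06, -0.02, -0.14 and -0.10, of which only that for insulin in IRKO passed (edgeR adjusted p = 0.0326). Mcl1 and Bcl2l11 were added after their values were seen: Mcl1 fell with insulin, by -0.11 in IRflox and -0.12 in IRKO, and did not pass with IGF-1, and Bcl2l11 did not pass in any of the 4. Sh3glb1, the gene of the UVRAG partner Bif-1, rose by 0.15 with insulin and 0.14 with IGF-1 in IRflox and by 0.15 with IGF-1 in IRKO, while with insulin in IRKO its difference of 0.08 did not pass (edgeR adjusted p = 0.0626). Rubcnl, the gene of Pacer, was near the detection limit, at 3 to 22 counts per library, and did not pass in any of the 4.

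Genes listed as effectors of PI3P were called in both directions, and binding to PI3P was not checked for each. Of 20 tested, 6 were called higher and 8 lower with insulin in IRflox, 5 and 9 with IGF-1, 3 and 11 with insulin in IRKO and 4 and 10 with IGF-1 in IRKO. With insulin in IRflox these were 30% higher and 40% lower, beside 24.3% and 21.4% of all genes. With insulin in IRKO they were 15% and 55%, beside 24.7% and 21.7%. With IGF-1 they were 25% and 45% in IRflox, beside 26.4% and 24.4%, and 20% and 50% in IRKO, beside 26.9% and 25.1%. The largest differences were in genes of autophagosome membranes: Wdr45, encoding WIPI4, changed by -1.65 with insulin in IRflox, Wipi1 by -1.03 and Zfyve1, encoding the omegasome marker DFCP1, by -1.004. Wipi1 averaged 75.6 CPM under vehicle and 36.97 with insulin, and Zfyve1 averaged 117.1 and 58.4. Wipi2, encoding the effector that recruits the lipid conjugation machinery, fell less, by -0.38 with insulin and -0.36 with IGF-1 in IRflox. Wdr45 shares 24.7% of its exon length with another annotated gene, Gm45208, so its count is uncertain.

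The 6 genes of this list called higher with insulin in IRflox, named after their values were seen, were Wdr45b, Rbsn, Snx3, Snx5, Snx6 and Snx27. Wdr45b encodes WIPI3, Rbsn encodes an endosomal tether, and the 4 sorting nexins act in endosome sorting and retrieval. Their log2 differences lay between 0.10 for Snx27 and 0.20 for Snx5.

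Other enzymes that make or remove PI3P were a short list, on which 1 gene is a large share. Of 15 tested, 3 were called higher and 5 lower with insulin in IRflox, 5 and 4 with IGF-1, 4 and 4 with insulin in IRKO and 5 and 6 with IGF-1 in IRKO, and Mtmr8 was not analysed here. Over the 4 comparisons these were 20 to 33.3% higher, beside 24.3 to 26.9% of all genes. The share called lower was 26.7 to 40%, beside 21.4 to 25.1% of all genes, and these differences were not tested. Mtmr14, a PI3P phosphatase gene, fell from 41.8 to 25.9 CPM with insulin in IRflox (log2 difference -0.69, SE 0.0566, edgeR adjusted p = 1.81e-13). Inpp4a, whose product makes PI3P from a bisphosphate, changed by -0.37, and Mtmr7, another phosphatase gene, rose by 0.18 with insulin and by 0.46 with IGF-1 in IRflox.

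The partners through which UVRAG and ATG14 act in membrane fusion, among them the HOPS tethering subunits, RAB5 and RAB7 proteins and SNAREs, were called only lower. Of 18 tested, 10 were lower with insulin in IRflox, 10 with IGF-1, 11 with insulin in IRKO and 10 with IGF-1 in IRKO. With 0 called higher, the median log2 differences were -0.18, -0.18, -0.19 and -0.17. Across these comparisons 55.6 to 61.1% were lower, beside 21.4 to 25.1% of all genes. The share called higher was 0%, beside 24.3 to 26.9% of all genes, and these differences were not tested. Vps18, a HOPS core gene, changed by -0.41 with insulin in IRflox, Plekhm1, a RAB7 and HOPS adaptor gene, by -0.36, and Rab5b, an early endosome GTPase gene, by -0.35. Rab7, named after its values were seen, differed by -0.01 there and did not pass.

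**Figure D4:**
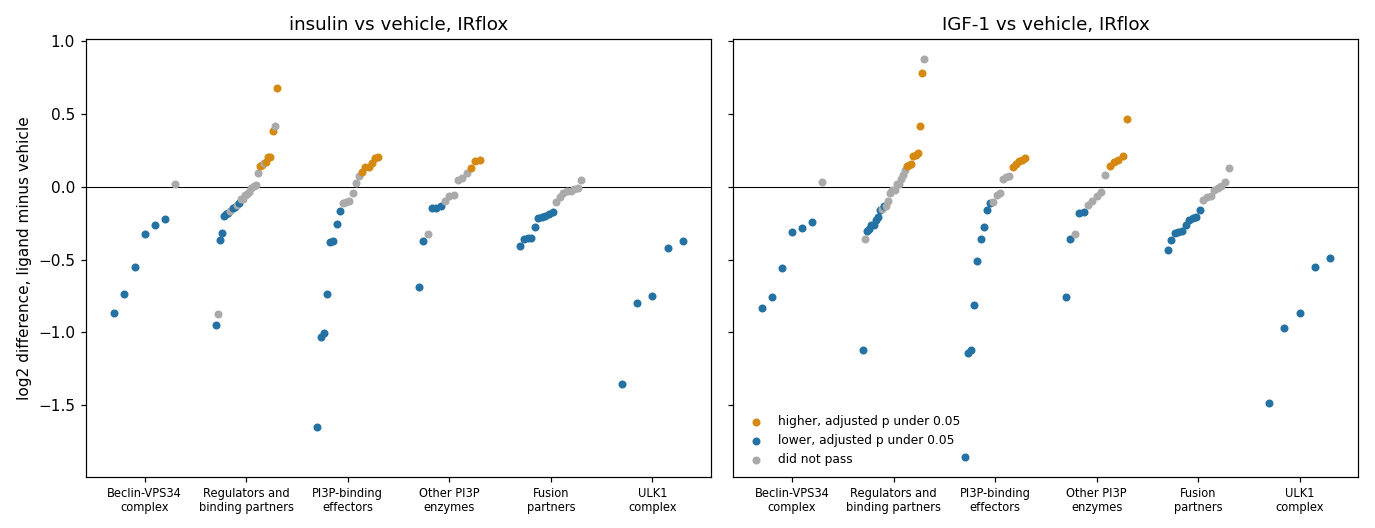
Fitted log2 difference, ligand minus vehicle in IRflox, of each tested gene of the complex and of the 5 lists around it, sorted within each list; orange points were called higher, blue lower and grey did not pass. The 5 ULK1 complex genes and 6 of the 7 Beclin-VPS34 complex genes are blue in both panels, and the effectors and regulators hold both colours.

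Genes with a pattern most like each member were found by Pearson correlation of log2 CPM over the 24 libraries among 12085 other genes. These values describe likeness only, since the libraries fall into vehicle and ligand sets and share their scaling. Closest to Pik3c3 were Wdr19, a ciliary transport gene, at 0.977, Rbl2, a pocket protein gene, at 0.977 and Slc17a5, a lysosomal sialic acid exporter gene, at 0.976. Closest to Pik3r4 were Fbxo32, a ubiquitin ligase gene, at 0.956, Dock10 at 0.956 and Pcnt at 0.953. Closest to Atg14 were Atp6v1b2, a subunit gene of the lysosomal proton pump, at 0.960, Zbtb44 at 0.959 and Tacr1 at 0.958.

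The other members had looser neighbours. Closest to Uvrag were Rnf122 at 0.880, Fam214a at 0.873 and Snn at 0.871, and closest to Ambra1 were Myh10, a non-muscle myosin gene, at 0.889, Dip2b at 0.888 and Arhgef11 at 0.883. Closest to Nrbf2 were Hs1bp3 at 0.752, Furin, a protease gene, at 0.750 and Otud7b at 0.745. Becn1 had the loosest, with Rab18, a GTPase gene, at 0.695, Aga, a lysosomal enzyme gene, at 0.669 and Smpdl3a at 0.622.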

How the data were processed

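RNA-seq counts were deposited by the authors as 1 table per library, with raw read counts per gene and no normalization, per the file headers. Per the labels' protocols, the libraries were poly-A selected, unstranded and sequenced from both ends at 150 bp. Aligner STAR 2.7.7a, R 4.0.4, DESeq2, edgeR and the mm10 build appear in the submitters' processing notes without stated roles. Which program counted the reads, and on which annotation, is not given in the sources used here. The last 3 lines of each table name no gene and were left out.

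Groups came from the sample titles. Genes with low counts were dropped by filterByExpr (count of at least 10, total of at least 15), scaled by TMM (factors 0.982 to 1.02) and fitted in edgeR 4.0.16 (R 4.3.3) by quasi-likelihood with 1 mean per group over 24 libraries, without a replicate block, in 13 comparisons. Common variation between replicates was 4.92%. Benjamini-Hochberg adjustment ran over 15599 genes. For log2 CPM 2 counts were added as a prior. Alternatives were DESeq2 size factors, library size alone, no filter, a mean CPM of at least 1, DESeq2 1.42.0, a replicate block, only the groups compared, and leaving out each library. The fit was also run on counts simulated from its own model with few genes changed, which cannot show that the model suits these data. GENCODE M21 held 32663 of the 32719 identifiers. Replicates of a group differed beyond sampling noise in each of 36 pairs (chi-square per gene 2.14 to 6.71). The members and lists were chosen with earlier results of these data known. Named genes were the members, Insr, 8 fixed regulators and effectors, the 3 list genes with the largest called change with insulin in IRflox, and the 3 genes most like each member with a mean log2 CPM of at least 2.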

Additional observations from a re-analysis of the deposited data

Results flagged for a closer look

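Within 1 library, 2 genes of the complex stood apart in opposite directions. In IRflox insulin replicate 2, Atg14 was low, at 14.24 CPM beside 16.05 to 16.34 in the other 3 libraries of the group, and Uvrag was high, at 47.75 CPM beside 40.7 to 41.88. In each case the gap to the nearest library, as a share of the range of the group, was above Dixon's critical value of 0.829, at 0.864 for Atg14 and 0.833 for Uvrag. Of 42 combinations of gene and group examined 2 stood apart, and chance gives about 5% of groups. Both genes kept their calls for insulin in IRflox in each setting with a library left out.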

How the results depend on the processing

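Of 630 log2 differences of the 7 genes in settings other than leaving out a library, 630 kept their direction where called and their side of the threshold, as did 90 of 90 counts of genes called. Among 2184 values with 1 library left out, 18 calls were lost, 6 were gained and 0 reversed. For IGF-1 in IRflox, Nrbf2 lost its call in 4 of these fits. For insulin in IRKO the number of genes called ranged from 3 to 6. It ranged from 0 to 1 for IRKO against IRflox under IGF-1 and from 0 to 1 for that contrast over the 3 treatments. In the last, Atg14 passed without IRflox vehicle 2, IRflox IGF-1 3, IRflox insulin 2, IRKO IGF-1 4 or IRKO insulin 3 (edgeR adjusted p from 0.0216 to 0.0499), and Pik3c3 without IRflox insulin 3 (0.0439). Its fit restricted to the groups compared is the same fit, so none was run. The labels do not say whether replicate numbers pair the libraries. Of 60 same-number pairs 0 had a correlation of deviations over 0.1. The median correlation was 0.00727 for same-number pairs and -0.0022 for pairs of different numbers. In every other group at once, 0 libraries matched their own number best, a rule that chance alone rarely meets, so this count cannot exclude pairing. With a replicate block, 6, 6, 6 and 5 of 7 genes were called in the 4 ligand comparisons and 7115 of all genes for insulin in IRflox. Over all genes, the insulin against IGF-1 count in IRflox was 250 without IRflox IGF-1 replicate 4 and 247 without IRflox insulin replicate 2, and in IRKO 267 without IRKO insulin replicate 1 and 277 without replicate 3, beside 404 and 417. Differences in response between genotypes called 19 genes each with no filter, 2 for IGF-1 in DESeq2, and, for insulin, 1 without IRflox vehicle replicate 1, 4 without IRKO vehicle replicate 1 and 1 without IRKO insulin replicate 1, beside 0. DESeq2 size factors and library size alone shifted the median of all genes by -0.0262 to 0.0147.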
